A study of Mus musculus with 4 samples.

Results

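The 30 genes described here encode the enzymes and regulators of cholesterol and fatty acid synthesis, out of 18193 genes with a probe set of their own. They were followed in sorted mouse regulatory T cells. All 30 had at least 1 probe set listed with that gene alone, 69 probe sets in all, and none of their symbols changed against the RefSeq gene table. A gene is represented by its brightest probe set. Of the 30, 28 lay at or above percentile 50 of mean level over all probe sets and were tested. Scd1 and Fads2, at percentiles 48.6 and 44.9, lay below it and are given as values only. The member nearest above that limit was Mvk, at percentile 63.1.

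The tested cells were CD4+ Foxp3+ Nrp1-positive cells and the cells they are set against were CD4+ Foxp3+ Nrp1-negative cells, both sorted from spleens of Balb/c mice that carry a Foxp3 GFP reporter. Nrp1 is neuropilin-1, a surface receptor that binds semaphorins and the growth factor VEGF. No treatment is given in the labels, and the strain and reporter are shared by all 4 arrays. There were 2 arrays per group, numbered replicate 1 and 2. The mice were 4 to 6 weeks old for 3 arrays and 4 to 8 weeks for the array titled Nrp1-negative replicate 1. Other labels of that array, its source name and its cell type, read Nrp1-positive. Its group was taken from its title, so it is the array titled Nrp1-negative wherever replicate 1 is given. Whether the arrays within a group are from different mice is not stated in the labels, so p-values measure only the spread between these arrays, which may be technical.

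Cells make cholesterol from acetyl-CoA by way of mevalonate, farnesyl diphosphate and squalene, and make fatty acids from the same acetyl-CoA by way of malonyl-CoA. Both routes are switched on by SREBP transcription factors, which Scap escorts out of the endoplasmic reticulum when sterols are low and Insig proteins hold back when sterols are high. In T cells the routes supply membrane for growth, and in mouse regulatory T cells the mevalonate pathway is known to be needed for suppressive function.

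The Nrp1 probe set went with the array titles. It had a scaled intensity of 9344 and 7745 on Nrp1-positive replicates 1 and 2, against 339 and 1223 on Nrp1-negative replicates 1 and 2. The T cell receptor genes Cd3e and Cd3d were bright on all 4 arrays. The Foxp3 probe set was dim on all 4, between 2.16 and 36.4, and so checked nothing. Of 8 sorted-cell markers tested, 4 were higher and 2 lower in both replicates. Of the 8, 2 passed in limma with the block, Nrp1 and Ikzf2, both higher with Nrp1. Ikzf2 differed by 1.01 and 0.65 on the log2 scale within the replicates (adjusted p = 0.0321 in limma). Il2ra differed by 0.26 and 0.28 and Ctla4 by -0.23 and 0.01, and neither passed. Marker lists of B cells, erythroid cells and fat cells had 1 of 5, 0 of 2 and 0 of 3 measured members above the level filter. The 1 B cell marker above it was higher in Nrp1-positive cells, by 0.58 in replicate 1 and 0.46 in replicate 2 on the log2 scale (adjusted p = 0.506 in limma with the block). CD8 T and NK cell markers, with 3 of 4 above the filter, summed to 969 and 1421 on Nrp1-positive replicates 1 and 2, against 927 and 2081 on Nrp1-negative replicates 1 and 2. Of these 3, 1 was higher and 2 were lower in both replicates, with mean differences from -0.57 to 0.22. Between those ends lay Gzma, a granzyme of cytotoxic cells, which differed by -0.02 and -0.93 within the replicates. The 7 myeloid and dendritic markers, 6 of them above the filter, summed to 2355 and 10284 on Nrp1-positive replicates 1 and 2, against 1707 and 11277 on Nrp1-negative replicates 1 and 2. Replicate 2 was also higher in proliferation genes, by a median of 2.08 on the log2 scale in Nrp1-positive cells and 2.56 in Nrp1-negative cells. Arrays of the same replicate number correlated at 0.968 and 0.973 over all probe sets, against 0.957 between the Nrp1-positive arrays and 0.949 between the Nrp1-negative arrays. Differences were taken within each replicate number, as laid down with the member list and not because of these correlations. In whole sorted populations, fewer cells of a type and less RNA per cell cannot be told apart.

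No gene of cholesterol or fatty acid synthesis passed the test between Nrp1-positive and Nrp1-negative regulatory T cells. In limma with the replicate number as a block, 0 of 28 members were higher and 0 lower at an adjusted p below 0.05, where 0.285% and 0.167% of all 10192 genes tested were higher and lower. A single member, Sc5d, had an unadjusted p below 0.05, against 8.6% of all genes. Differences, as Nrp1-positive minus Nrp1-negative log2 of intensity plus a pseudocount of 18.3, ranged from -0.37 for Sqle to 0.38 for Sc5d. The pseudocount makes such a difference smaller than the true one in dim genes. The median was -0.10, against 0.0040 over all genes tested, and it was -0.02 in replicate 1 and -0.05 in replicate 2. The median absolute difference was 0.13 in members and 0.12 in all genes.

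The 95% intervals of the differences say how large a change could have been missed in the brightest probe set of a gene. All 28 members had an interval inside a 2-fold change in either direction, as did 89.0% of all genes tested. The widest was that of Mvk, from -0.91 to 0.38. These intervals rest mostly on the variance of other genes of similar level, since each gene had 1 residual degree of freedom against a median of 7.88 from the prior. A p above the threshold does not show that the groups are alike. Other probe sets are not covered by these intervals. The second Sc5d probe set, fitted separately after its values were seen, had a difference of 0.84 (standard error 0.16), so a 2-fold change cannot be left out there.

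**Figure D1:**
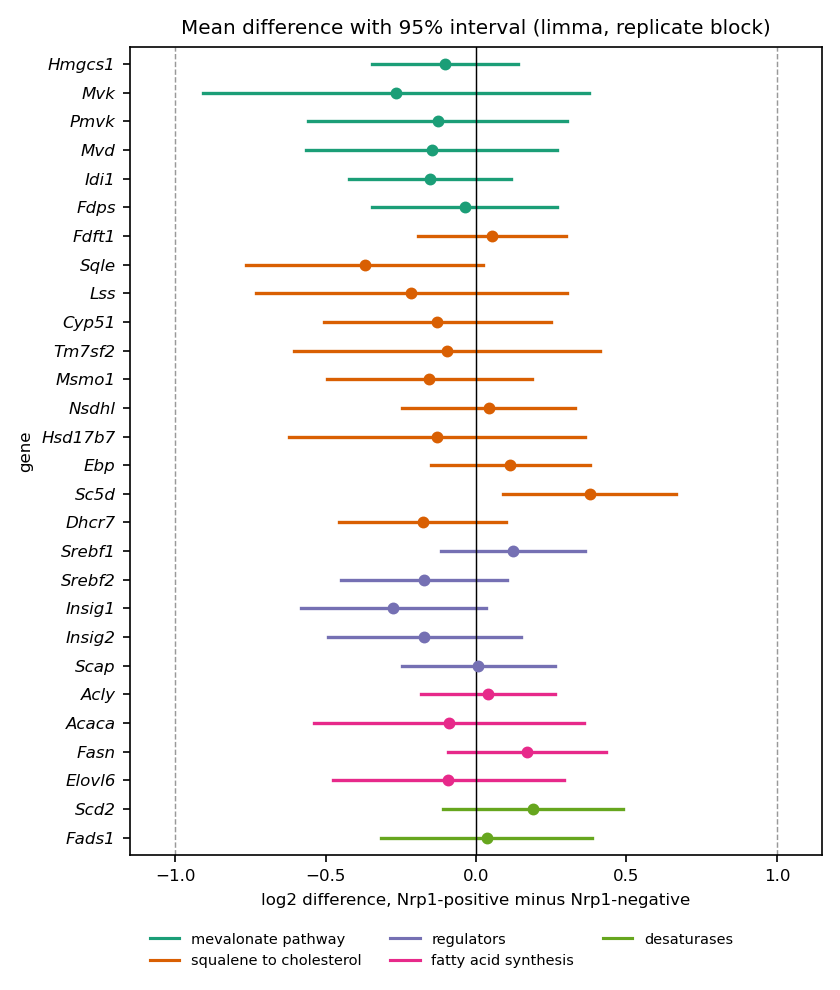
Mean log2 difference (x axis, Nrp1-positive minus Nrp1-negative) of the 28 tested members (rows, coloured by role), as points with 95% intervals as lines, from limma with the replicate number as a block. Every interval lies between the dashed lines at -1 and 1, which mark a 2-fold change, and the interval of Sc5d, from 0.09 to 0.67, is the only one that leaves out 0.

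In sign, Nrp1-positive cells had 6 members higher and 10 lower in both replicates, and 12 differed in opposite directions. Those are 21.4% and 35.7% of the members, where 27.9% of all genes tested were higher and 26% lower in both. The 6 higher members were Fdft1, Sc5d, Srebf1, Acly, Fasn and Fads1. The 10 lower ones were Hmgcs1, Idi1, Sqle, Lss, Tm7sf2, Dhcr7, Srebf2, Insig1, Insig2 and Elovl6. Of the 10, 6 are among the 17 enzymes of cholesterol synthesis tested and 3 are among the 5 regulators. The groups did not overlap over the 4 arrays in 4 members (Sc5d higher, and Idi1, Sqle and Tm7sf2 lower), against 21.1% of all genes.

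**Figure D2:**
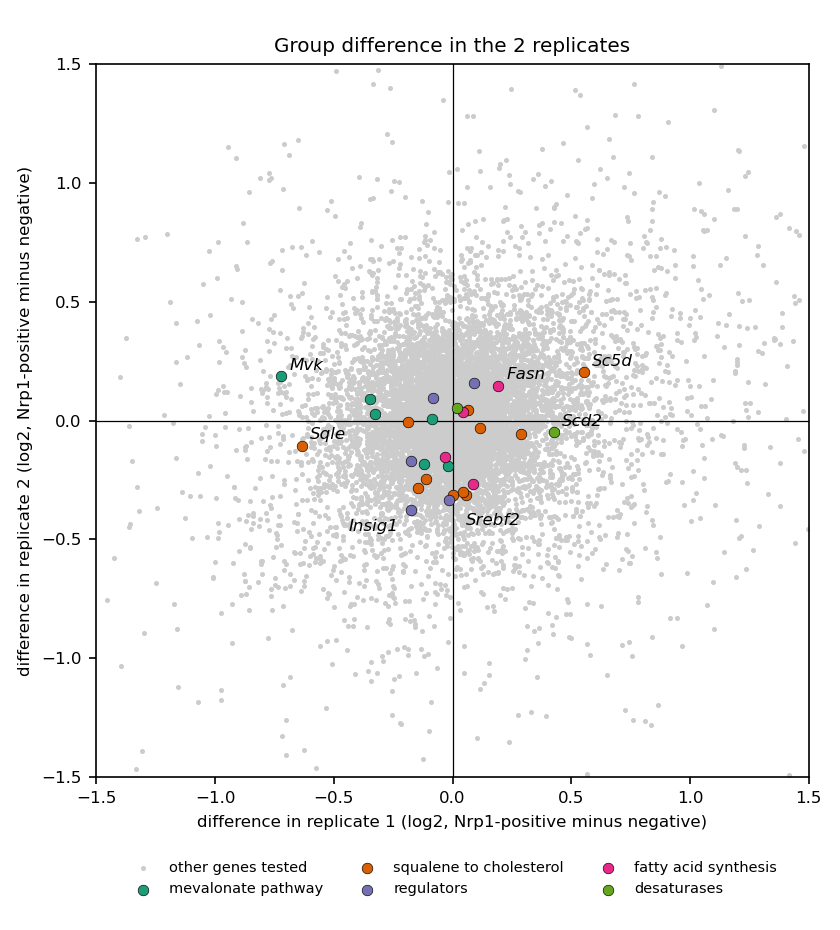
Log2 difference between Nrp1-positive and Nrp1-negative cells in replicate 1 (x axis) and replicate 2 (y axis), with members coloured by role and all other genes tested in grey. The members lie within the central cloud, with 10 at the lower left and 6 at the upper right, and 95 genes lie beyond the axes.

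Enzymes of the mevalonate pathway turn acetyl-CoA units into farnesyl diphosphate. Of 6 tested by their brightest probe set, 0 passed and 0 were higher in both replicates. In both replicates 2 were lower, and 4 differed in direction, with a median of -0.14. Over all genes tested, 27.9% were higher and 26% lower in both, and 6 genes are too few to read a direction from. Hmgcs1, the cytosolic HMG-CoA synthase that commits carbon to mevalonate, had intensities of 1965 and 2233 in Nrp1-positive replicates 1 and 2, against 1989 and 2549 in Nrp1-negative ones. The values overlapped, and the difference was -0.02 in replicate 1 and -0.19 in replicate 2, with a mean of -0.10 (standard error 0.11, adjusted p = 0.877 in limma with the block). Idi1, which interconverts the isoprene units, was at 1122 and 1072 in Nrp1-positive cells and at 1222 and 1220 in Nrp1-negative cells. Both Nrp1-positive arrays lay under both Nrp1-negative ones, by a mean of -0.15 (adjusted p = 0.791 in limma). Its other probe set above the filter differed by 0.27 in replicate 1 and by -0.57 in replicate 2.

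The kinases Mvk and Pmvk and the decarboxylase Mvd, which act on mevalonate in turn, had brightest probe sets that were lower in replicate 1 alone. Mvk had 175 and 177 in Nrp1-positive cells, against 301 and 153 in Nrp1-negative cells. The array titled Nrp1-negative replicate 1 was the high one, and the difference was -0.72 in replicate 1 and 0.19 in replicate 2. Pmvk differed by -0.35 and 0.09, and Mvd by -0.33 and 0.03, in the same order. The other Mvk probe set took the opposite pattern, at 0.69 and -0.52, and the other Mvd probe set was lower in both, at -0.16 and -0.13. Fdps, the farnesyl diphosphate synthase at the branch to prenyl groups and squalene, was 550 and 1068 in Nrp1-positive cells and 585 and 1061 in Nrp1-negative cells. Its arrays separated by replicate number, by 0.93 and 0.84, and hardly by group.

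Between squalene and cholesterol, 0 of 11 genes passed, 2 were higher in both replicates (Fdft1 and Sc5d), 4 were lower in both (Sqle, Lss, Tm7sf2 and Dhcr7), and 5 differed in direction. Sqle, the squalene epoxidase that is a control point of the late pathway, had 433 and 621 in Nrp1-positive cells, against 684 and 670 in Nrp1-negative cells. Nrp1-positive replicate 1 was well under the other 3 arrays. The difference was -0.64 in replicate 1 and -0.11 in replicate 2, with a mean of -0.37, a 95% interval of -0.77 to 0.02 and an adjusted p = 0.610 in limma. It was -0.12 without Nrp1-positive replicate 1, in a fit without the block.

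Lss, the lanosterol synthase that closes the sterol rings, had 248 and 165 in Nrp1-positive cells and 276 and 204 in Nrp1-negative cells. It was lower by -0.15 and -0.28 within the replicates, and the group ranges overlapped. A second Lss probe set differed by -0.69 in replicate 1 and 0.59 in replicate 2. Dhcr7, a reductase of the last step of cholesterol synthesis, had 1232 and 864 in Nrp1-positive cells and 1331 and 1027 in Nrp1-negative cells. Its difference was -0.11 and -0.24, with a mean of -0.18 (adjusted p = 0.753 in limma).

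The sterol demethylation genes Cyp51, Msmo1 and Hsd17b7 were near equal in replicate 1, at 0.06, 0.0019 and 0.04, and differed by -0.32, -0.31 and -0.30 in replicate 2. In each of the 3 the low array was Nrp1-positive replicate 2. Cyp51, for example, had 609 and 456 in Nrp1-positive cells, against 585 and 573 in Nrp1-negative cells. Of these 3, Hsd17b7 has 2 further probe sets above the filter, 1 of which was higher in both replicates, at 0.44 and 0.19, and the other lower, at -0.53 and -0.20. Nsdhl, a partner enzyme in the same removal of methyl groups, differed by 0.12 and -0.03, and Ebp, a sterol isomerase, by 0.29 and -0.06. Fdft1, the squalene synthase, differed by 0.06 and 0.04, and its other probe set above the filter by -0.23 and -0.16. Tm7sf2, a sterol reductase, differed by -0.19 and -0.01.

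Sc5d was the member with the largest difference. It encodes lathosterol oxidase, which desaturates the sterol ring just before the last reductase. The brightest probe set had 1590 and 1600 in Nrp1-positive cells, against 1079 and 1386 in Nrp1-negative cells, and both Nrp1-positive arrays lay above both Nrp1-negative ones. The difference was 0.55 in replicate 1 and 0.20 in replicate 2, with a mean of 0.38 (1.30-fold, standard error 0.13, 95% interval 0.09 to 0.67). Its unadjusted p was 0.0156 and its adjusted p 0.388 in limma with the block, so it did not pass. It was 0.20 without Nrp1-negative replicate 1, the array with conflicting labels, in a fit without the block. With that array moved to the Nrp1-positive group it was 0.20 with the block, from replicate 2 alone, and 0.01 without the block.

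A second Sc5d probe set separated the groups further. It had 804 and 906 in Nrp1-positive cells, against 469 and 467 in Nrp1-negative cells, a difference of 0.76 in replicate 1 and 0.93 in replicate 2. The remaining probe set, below the level filter, was higher by 0.53 and 0.08. With each passing probe set tested separately, an alternative chosen after seeing these values, the second had a difference of 0.84 and an adjusted p = 0.0460 in limma with the block, where 0.292% of 18819 probe sets were higher. With probe sets averaged per gene, in place of the brightest, Sc5d was 0.61 higher (adjusted p = 0.0112 in limma, replicate number blocked), the single member higher where 1.24% of all genes were. Whether the probe sets read different transcript ends of Sc5d was not tested.

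**Figure D3:**
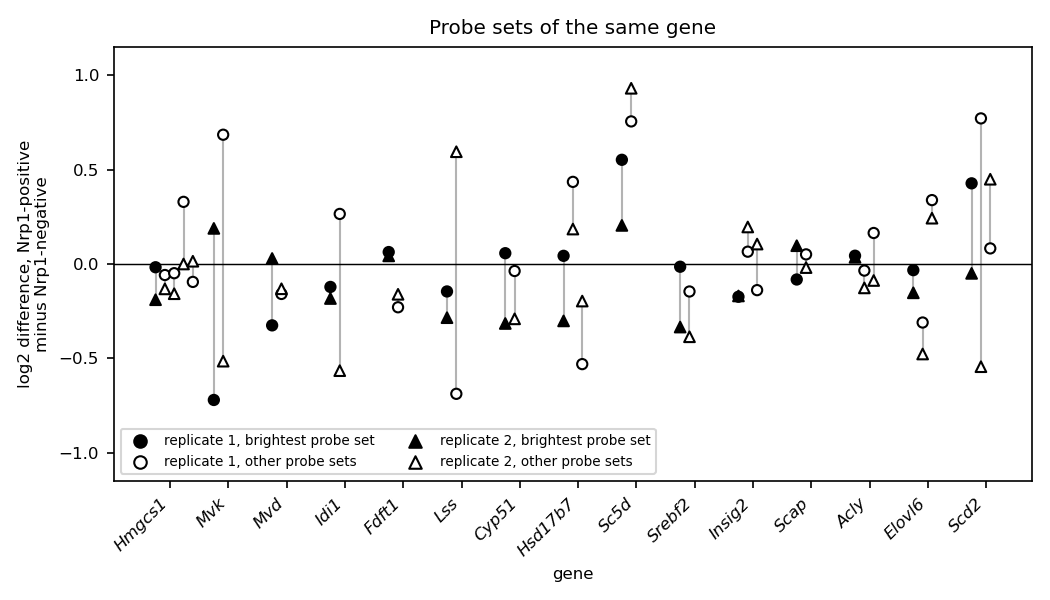
Log2 difference between Nrp1-positive and Nrp1-negative cells (y axis) for every probe set above the level filter, in the 15 members that have more than 1. Circles are replicate 1, triangles replicate 2, filled symbols the brightest probe set, and a line joins the values of a probe set. Both Sc5d probe sets lie above 0 in both replicates, while the second probe sets of Mvk and Lss cross 0.

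Probe sets of the same gene disagreed elsewhere too, which bears on how far a single value can be read. Elovl6, which elongates palmitate, had 3 probe sets above the filter with mean differences of -0.09, -0.39 and 0.29. The 5 probe sets of Hmgcs1 lay between -0.10 and 0.16 in mean difference. Array names ending in x, as for the brightest probe sets of Hmgcs1, Fdft1 and Hsd17b7, mark probes that can also bind other transcripts, and this was not tested.

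RefSeq promoter sequence of build GRCm38.p6 was at hand for 24 of the 30 members, in 32 windows because some genes have several start sites, and the 250 bases before each start site were searched on both strands. The NF-Y box CCAAT, a known partner site of SREBP factors, was in 20 of 32 member windows (62.5%), against 33.8% of all 32851 windows and 35.2% of the 10632 windows of genes tested here. The GC box GGGCGG was in 71.9% of member windows, 32.7% of all windows and 58.0% of those of tested genes. The E-box CACGTG was in 15.6%, 6.02% and 8.54%. The letters TCACNCCAC, a form of the sterol response element that SREBP factors bind, were in 1 member window, that of Hmgcs1, and in 1.05% of all windows. No motif shares bases with another in the windows printed here. A match is a run of letters, not a site shown to be bound, and no test was made of these shares.

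The 250 bases before the start sites of Hmgcs1, Sc5d and Insig1 are shown because Hmgcs1 holds the sterol response element letters, Sc5d has the largest difference and Insig1 is the feedback gene of the pathway. Capitals mark the motifs on either strand, so that ATTGG is CCAAT, and CCGCCC is GGGCGG, read on the other strand. Hmgcs1 lies at chr13:119690101-119690350 on the plus strand, Sc5d at chr9:42264301-42264550 on the minus strand and Insig1 at chr5:28071162-28071411 on the plus strand.
Hmgcs1: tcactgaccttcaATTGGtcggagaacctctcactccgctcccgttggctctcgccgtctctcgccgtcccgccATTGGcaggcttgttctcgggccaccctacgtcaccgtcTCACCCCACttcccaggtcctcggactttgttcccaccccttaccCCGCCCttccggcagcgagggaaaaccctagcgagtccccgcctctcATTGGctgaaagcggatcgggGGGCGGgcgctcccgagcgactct
Sc5d: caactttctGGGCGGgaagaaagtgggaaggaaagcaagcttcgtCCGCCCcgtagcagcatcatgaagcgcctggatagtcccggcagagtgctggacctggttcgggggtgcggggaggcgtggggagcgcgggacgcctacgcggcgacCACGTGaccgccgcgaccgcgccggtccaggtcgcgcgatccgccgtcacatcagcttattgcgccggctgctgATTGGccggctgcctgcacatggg
Insig1: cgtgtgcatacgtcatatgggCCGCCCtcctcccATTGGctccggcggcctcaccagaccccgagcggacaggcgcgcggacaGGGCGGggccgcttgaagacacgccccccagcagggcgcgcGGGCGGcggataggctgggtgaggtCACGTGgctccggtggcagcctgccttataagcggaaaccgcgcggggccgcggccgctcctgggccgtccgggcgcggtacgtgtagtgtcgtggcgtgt
The Hmgcs1 window has 3 NF-Y boxes, starting 237, 176 and 45 bases before the start site, on both sides of the TCACNCCAC match at 137 bases. Sc5d has 1 NF-Y box at 24 bases and 1 E-box at 98 bases, and Insig1 has 1 NF-Y box at 216 bases and 1 E-box at 101 bases. In mean difference, Hmgcs1 was at -0.10, Sc5d at 0.38 and Insig1 at -0.28.

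Among the regulators, 0 of 5 passed, Srebf1 was higher in both replicates and Srebf2, Insig1 and Insig2 were lower in both, with a median of -0.17. Insig1, the membrane protein that retains the SREBP complex and is itself a target of it, had 968 and 610 in Nrp1-positive cells, against 1094 and 797 in Nrp1-negative cells. It was lower within both replicates, by -0.17 and -0.38, although the ranges of the groups overlapped. The mean was -0.28 (95% interval -0.58 to 0.03, adjusted p = 0.631 in limma with the block), and it was 0.05 without Nrp1-positive replicate 2, in a fit without the block that also takes in the gap between replicates. Insig2, its paralog, had 588 and 717 in Nrp1-positive cells and 665 and 809 in Nrp1-negative cells, a difference of -0.17 in each replicate. Its other probe sets above the filter differed by 0.07 and 0.20 in one case and by -0.14 and 0.11 in the other.

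Srebf2, the factor that mainly drives the cholesterol genes, had 2198 and 1016 in Nrp1-positive cells, against 2220 and 1285 in Nrp1-negative cells. The difference was -0.01 in replicate 1 and -0.33 in replicate 2, and a second probe set gave -0.15 and -0.39. The gap between the replicates was larger, at -1.10 in Nrp1-positive cells and -0.78 in Nrp1-negative cells. Srebf1, the factor that mainly drives the fatty acid genes, had 2378 and 1821 in Nrp1-positive cells and 2234 and 1629 in Nrp1-negative cells. It was higher by 0.09 and 0.16, with a mean of 0.12 (adjusted p = 0.821 in limma). Its single probe set was not traced to either of the Srebf1 transcript forms. Scap, the escort protein, had 1482 and 1902 in Nrp1-positive cells and 1570 and 1778 in Nrp1-negative cells, a mean difference of 0.0073.

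**Figure D4:**
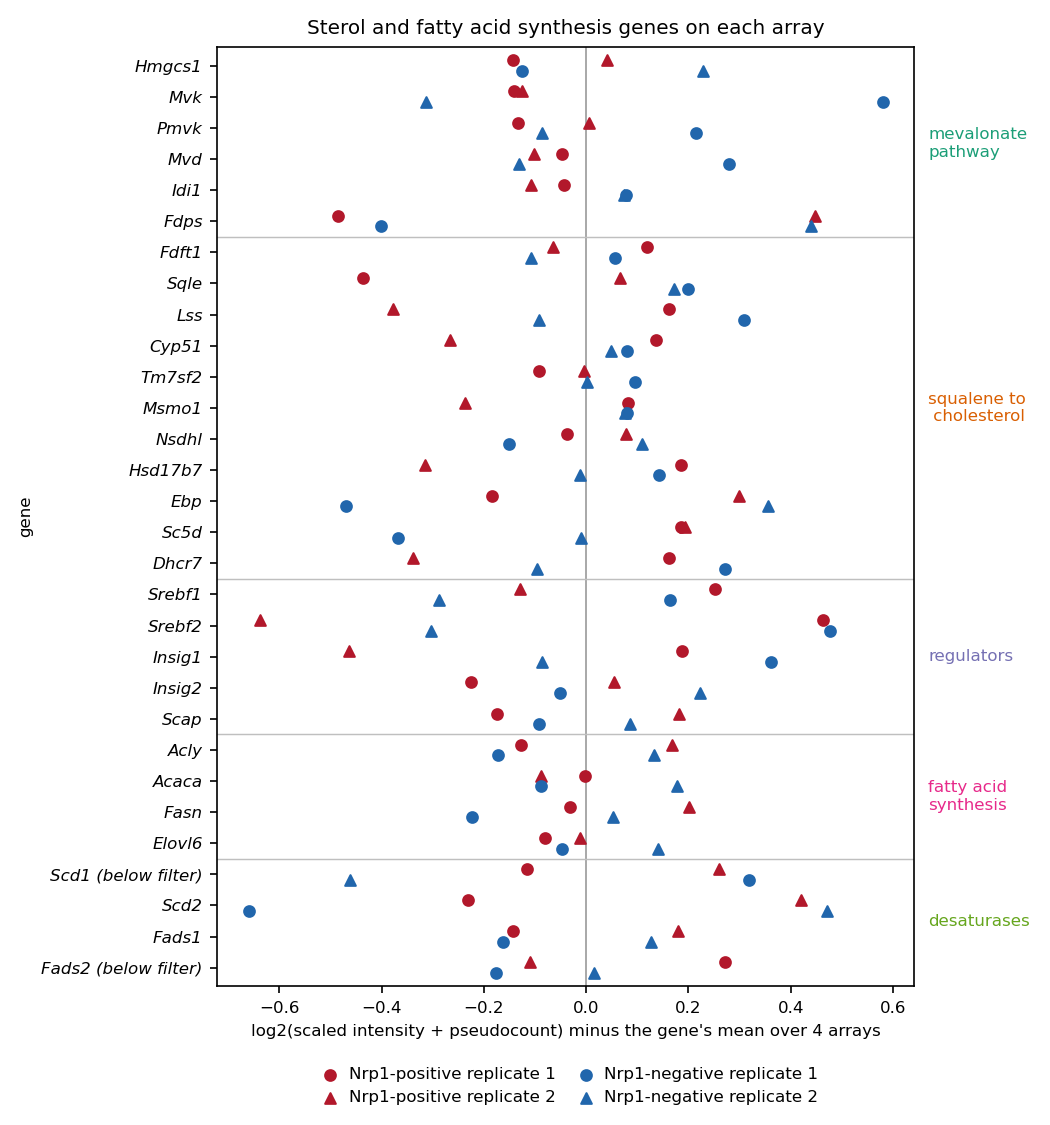
Log2 level of each member on each array, minus that gene's mean over the 4 arrays (x axis), with genes in rows grouped by role. Nrp1-positive arrays are red and Nrp1-negative ones blue, replicate 1 circles and replicate 2 triangles. In Srebf2, Fdps, Ebp and Scd2 the circles and triangles lie apart, and in Sc5d both red symbols lie right of the blue ones.

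Among the fatty acid synthesis genes, of 4 tested, 0 passed, Acly and Fasn were higher in both replicates and Elovl6 was lower in both, with a median of -0.03. Acly, the citrate lyase that supplies cytosolic acetyl-CoA to both routes, had 4243 and 5211 in Nrp1-positive cells, against 4115 and 5085 in Nrp1-negative cells. The difference was 0.04 in each replicate, with a 95% interval of -0.18 to 0.26. Another Acly probe set of almost the same level, at percentile 96.5, was lower in both replicates, by -0.03 and -0.13. Fasn, the fatty acid synthase, had 1226 and 1442 in Nrp1-positive cells, against 1071 and 1300 in Nrp1-negative cells. It was higher by 0.19 and 0.15, with a mean of 0.17 (1.12-fold, adjusted p = 0.748 in limma), and the group ranges overlapped because replicate 2 was higher in both groups. Acaca, the acetyl-CoA carboxylase that makes malonyl-CoA, had 337 and 316 in Nrp1-positive cells and 316 and 384 in Nrp1-negative cells. It differed by 0.09 and -0.27 and had no common direction.

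Of the desaturases, which put double bonds into fatty acids, Scd2 and Fads1 were tested and neither passed. Scd2 had 1743 and 2751 in Nrp1-positive cells, against 1292 and 2848 in Nrp1-negative cells. It differed by 0.43 in replicate 1 and -0.05 in replicate 2, and replicate 2 was higher by 0.65 in Nrp1-positive cells and 1.13 in Nrp1-negative cells. The mean difference was 0.19 by the titles. With the array of conflicting labels moved to the Nrp1-positive group it was -0.05 with the replicate block kept, which is the replicate 2 value, and -0.63 without the block, where the gap between replicates enters too. Scd1, the paralog best known from liver and fat, had 55.2 and 77.0 in Nrp1-positive cells and 80.9 and 39.4 in Nrp1-negative cells. Fads1, a desaturase of polyunsaturated fatty acids, had 492 and 620 in Nrp1-positive cells and 485 and 597 in Nrp1-negative cells. Its other probe set, below the level filter, was higher by 1.01 and 0.73. Fads2 had 61.7 and 43.1 in Nrp1-positive cells and 40.3 and 48.7 in Nrp1-negative cells. Detection calls were not used here, so whether Scd1 and Fads2 are above background is unknown.

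Most members differed more between replicates than between groups. In 23 of 28 members the mean gap between replicates was larger than the mean difference between groups, as in 71.8% of all genes tested. Medians by role ran from -0.38 for the regulators to 0.49 for the desaturases in Nrp1-positive cells, and from -0.45 to 0.71 in Nrp1-negative cells, as replicate 2 minus replicate 1. Myeloid markers and proliferation genes were higher in replicate 2 as well, by the values given above, and their part in these gaps was not tested.

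Genes beside the synthesis pathways were read from lists of related steps. Of 141 genes on 11 lists, 124 had a probe set, 17 were not analysed here and 112 were tested. In limma with the block 0 passed. At an unadjusted p below 0.05, 5 were higher and 7 lower, where 8.6% of all genes tested lay under it in either direction. Of the 7, 6 are proliferation genes, and of the 5, 3 are fatty acid oxidation genes. Counts of sign in these lists stand beside 27.9% of all genes tested that were higher in both replicates and 26% that were lower. On the list of further cholesterol synthesis, with 4 tested, the largest differences were those of Hsd17b12 (-0.18) and Ggps1 (0.08). Ggps1 is the synthase of geranylgeranyl diphosphate. Hsd17b12 was placed on this list but encodes a reductase of fatty acid elongation, and it is not counted in the next list. In further fatty acid synthesis and desaturation, with 12 tested, 5 were higher and 1 lower in both replicates. Mid1ip1, an activator of acetyl-CoA carboxylase, had 1031 and 959 in Nrp1-positive cells, against 625 and 752 in Nrp1-negative cells. Its groups did not overlap, and it was higher by 0.71 and 0.34, with a mean of 0.52 (adjusted p = 0.247 in limma with the block).

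In SREBP processing and sterol sensing, with 9 tested, the ends were the paralogs Erlin1 (-0.32) and Erlin2 (0.32), which take part in the turnover of sterol-regulated proteins. In cholesterol uptake, transport and esterification, with 9 tested, 3 were lower and 1 higher in both replicates. The largest differences were -0.46 for the lipoprotein receptor Scarb1 and 0.19 for Stard3. In LXR and cholesterol efflux, with 7 tested, 3 were higher and 3 lower in both. The efflux transporter Abca1 had 1271 and 1420 in Nrp1-positive cells, against 952 and 1185 in Nrp1-negative cells, a mean difference of 0.33 (adjusted p = 0.447 in limma). Nr1h3, which encodes an LXR receptor, was the lowest at -0.75, with -0.22 in replicate 1 and -1.28 in replicate 2. It was dim, at percentile 50.1, just above the level filter. It had 73.8 and 30.2 in Nrp1-positive cells, against 88.7 and 99.4 in Nrp1-negative cells. The size of its mean difference thus rests largely on Nrp1-positive replicate 2 (standard error 0.41, adjusted p = 0.683 in limma). All 8 protein prenylation genes, which use the farnesyl and geranylgeranyl groups of the mevalonate pathway, differed in opposite directions in the replicates. So did 4698 of all 10192 genes tested. Triglyceride synthesis and acyl-CoA synthetase genes, with 14 tested, ran from -0.25 for Dgat2 to 0.20 for Mboat7 among those of one direction.

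**Figure D5:**
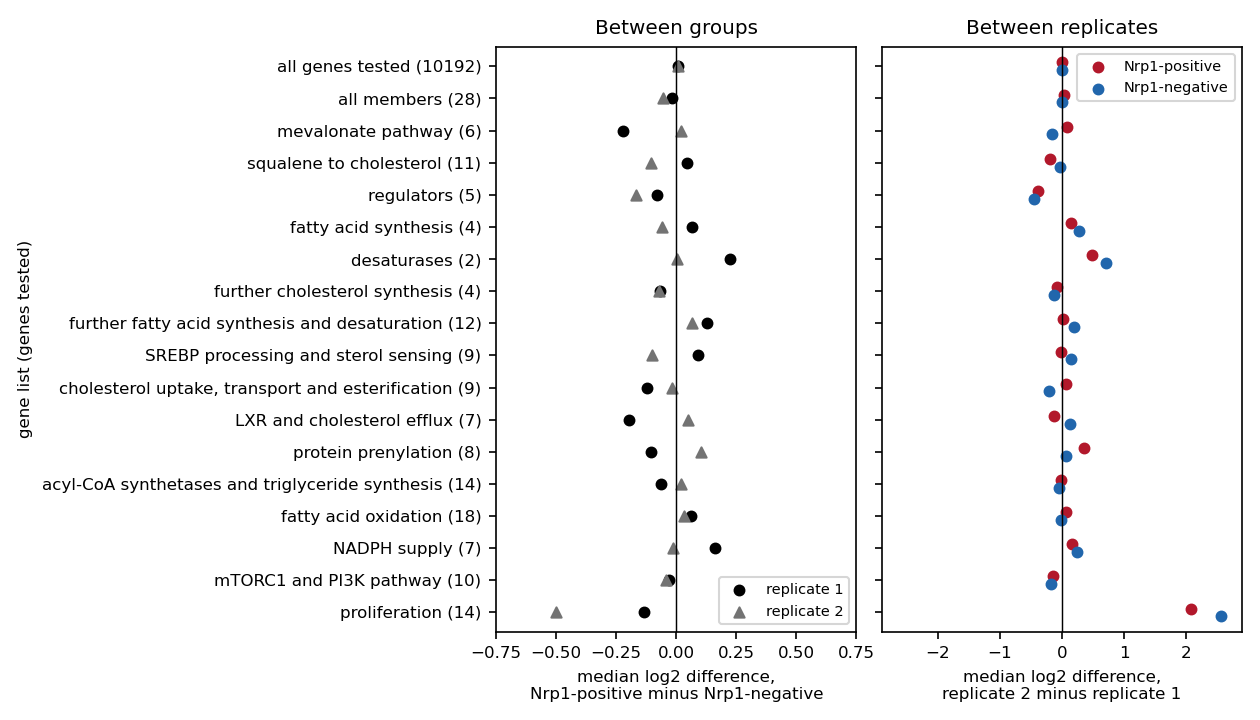
Median log2 difference of each gene list, with genes tested in brackets. The left panel shows Nrp1-positive minus Nrp1-negative, in replicate 1 (circles) and replicate 2 (triangles); the right panel shows replicate 2 minus replicate 1, in Nrp1-positive (red) and Nrp1-negative (blue) cells, on a wider axis. Members lie close to all genes between groups, while proliferation lies at 2.08 and 2.56 between replicates.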

How the data were processed

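RNA of 4 sorted cell samples was measured on Affymetrix arrays. The authors deposited MAS5 signal values, which are linear intensity values with no log taken, per the submitters' processing notes. No MAS5 version was recorded in those notes, and no detection calls were used. The deposited trimmed mean, with 2% taken off each end, was 500.003 on both replicate 1 arrays and 150.001 on both replicate 2 arrays, so the replicate number marks a batch of scaling. All arrays were brought to a trimmed mean of 500.

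Of 45101 probe sets, 64 controls were left out, and 34945 are listed with 1 gene, 932 with several and 9160 with none. The brightest probe set stood for a gene, and 10192 genes at or above percentile 50 were tested as log2 of intensity plus 18.3 in limma 3.58.1 (R 4.3.3), two-sided, with a mean-variance trend, the replicate number as a block and Benjamini-Hochberg adjustment at 0.05. Deviations from the group means correlated at 0.730 between arrays of the same number, across genes. In counts of sign or overlap the values are descriptions. The number of arrays limits the precision.

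Tested on simulated data for this comparison, with 10192 genes, the fit recovered 100% of 100 genes changed by 1 and 100% of 100 changed by 2 on the log2 scale, with 15 false calls. The simulated noise depended on level alone and did not vary from gene to gene, so real changes can be harder to detect. Changes smaller than 1, as all the members' differences were, were not simulated. Named in full were members that passed, the 8 largest differences of one sign in both replicates, the 5 regulators and the control-point enzymes; of related lists, genes that passed and the largest difference in each direction of one sign in both replicates. The members, lists and tests were chosen with earlier results of these data known. The 14 other settings cover the block, the trend, the scaling, the pseudocount, the filter, the choice of probe set, each array left out and the array with conflicting labels. Testing each probe set separately, and moving that array with the block kept, were added after seeing the data.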

Additional observations from a re-analysis of the deposited data

How the results depend on the processing

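Under the 14 other settings, 0 members were lower in any, and 1 member, Sc5d, was higher in 1 of them, with probe sets averaged per gene (0.61). It was also the 1 member higher with each probe set tested separately, which was added after seeing the data. Counts over all genes moved more. Genes higher and lower numbered 29 and 17 with the replicate block, 0 and 0 with no replicate block, and 0 and 0 with the replicate block but no mean-variance trend, where 146 and 868 genes had an unadjusted p below 0.05. They numbered 104 and 62 after quantile normalisation, 67 and 54 with one median, 44 and 32 with a pseudocount of the mean array median, 126 and 63 with the mean of probe sets, and 44 and 37 with each probe set tested separately. A pseudocount of 1 gave 30 lower. The members' median difference of -0.10 became -0.13 after quantile normalisation, -0.016 with a filter at percentile 75 and -0.068 with the mean of probe sets. Scap became -0.017 with one median and Acly -0.00098 with the mean of probe sets. The cause of these moves was not tested.

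The array titled Nrp1-negative replicate 1 was also moved to the Nrp1-positive group. With the replicate block kept, added after seeing the data, the difference rests on replicate 2 alone: 0 genes were higher and 0 lower, with 390 at an unadjusted p below 0.05, the members' median was -0.054, and of the members named in full and tested only Scd2 (-0.050) turned sign. With the block dropped too, 0 genes were higher and 0 lower, with 295 at an unadjusted p below 0.05, and, with the gap between replicates then mixed in, the sign turned in Insig1 (0.12), Lss (0.12), Dhcr7 (0.13), Srebf2 (0.40), Fasn (-0.071), Scap (-0.11), Acly (-0.18) and Scd2 (-0.63). Leaving out 1 array leaves no residual spread with the block, so these fits have none and mix the replicate number with the group. They gave 0 to 1 genes higher, 0 to 1 lower and a members' median of -0.11 to -0.058. The ranges were 0.20 to 0.56 for Sc5d, -0.62 to -0.12 for Sqle, -0.60 to 0.050 for Insig1, -0.49 to 0.055 for Lss, -0.43 to 0.074 for Dhcr7, -0.72 to 0.38 for Srebf2, -0.31 to -0.03 for Insig2, 0.03 to 0.31 for Fasn, -0.10 to 0.35 for Srebf1, -0.17 to 0.19 for Scap, -0.28 to 0.074 for Hmgcs1, -0.22 to 0.044 for Acaca, -0.11 to 0.19 for Acly and -0.38 to 0.75 for Scd2. Over all alternatives, 180 values of single members kept their sign and side of the threshold and 27 turned sign. Signal over background was not measured here.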

Other observations

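Genes that burn fatty acids, supply reducing power or serve growth lie next to the synthesis routes. Of 18 fatty acid oxidation genes tested, 0 passed, 7 were higher and 3 lower in both replicates, and 3 had an unadjusted p below 0.05. Over all genes tested, 27.9% were higher and 26% lower in both replicates, and 8.6% had such a p. Cpt2, which frees acyl groups inside mitochondria, had an intensity of 390 and 313 in Nrp1-positive cells, against 239 and 222 in Nrp1-negative cells. Its groups did not overlap, and the mean difference was 0.57 (standard error 0.21, adjusted p = 0.452 in limma with the replicate block). Hadhb, of the mitochondrial trifunctional protein, had the largest difference of the other sign, at -0.25. Of 7 genes on the list of NADPH supply, not all of which make NADPH themselves, 2 were higher in both replicates. The larger difference was that of Tkt, a transketolase, at 0.42 in replicate 1 and 0.02 in replicate 2, with a mean of 0.22. Of 10 mTORC1 and PI3K pathway genes, 1 was higher (Mlst8, 0.23) and 3 were lower in both replicates, of which Akt1 had the largest difference (-0.19).

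Of 14 proliferation genes, 0 passed, 8 (57.1%) were lower in both replicates, against 26% of all genes tested, and 6 were lower at an unadjusted p below 0.05, against 335 of all 10192 genes tested. Of the 14, 0 were higher in both replicates and 6 differed in opposite directions, where 4698 of all 10192 genes tested did. The median difference was -0.25, with -0.13 in replicate 1 and -0.50 in replicate 2. Aurkb, a mitotic kinase, had the largest difference at -0.98 (adjusted p = 0.217 in limma with the replicate block). Stmn1 had 1010 and 6550 in Nrp1-positive cells, against 1684 and 8888 in Nrp1-negative cells, with a mean difference of -0.58 and an adjusted p = 0.0761 in limma. Stmn1, Birc5 and Ube2c were chosen after their values were seen. With limma, the adjusted p of Stmn1 was 0.00815 after quantile normalisation, 0.0183 with one median, 0.0485 with a pseudocount of 1, 0.0476 with a pseudocount of the mean array median and 0.00117 with probe sets averaged per gene. Birc5 and Ube2c also passed after quantile normalisation (0.0309 and 0.0255), with one median (0.0468 and 0.0418) and with probe sets averaged (0.0115 and 0.0101), against 0.118 and 0.112 with the brightest probe set.

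Lipa, the lysosomal acid lipase that frees cholesterol from lipoprotein esters, was also chosen after its values were seen. It had 2170 and 2305 in Nrp1-positive cells, against 2978 and 3133 in Nrp1-negative cells. Its groups did not overlap, and the difference was -0.45 and -0.44 in the replicates (adjusted p = 0.137 in limma with the replicate block). With the mean of its probe sets the difference was -0.66 (adjusted p = 0.00614 in limma). Myeloid markers, which come from cells rich in this enzyme, summed to 2355 and 10284 in Nrp1-positive and 1707 and 11277 in Nrp1-negative cells, and their part in the Lipa values was not tested.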
